A study of Arabidopsis thaliana with 29 samples.

Results

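The subject is 8 R2R3 MYB transcription factor genes that have been linked to drought or abscisic acid (ABA) in Arabidopsis, chosen by gene ID from the 33559 genes of the table: MYB102 (AT4G21440), MYB74 (AT4G05100), MYB41 (AT4G28110), MYB96 (AT5G62470), MYB2 (AT2G47190), MYB44 (AT5G67300), MYB73 (AT4G37260) and MYB77 (AT3G50060). RNA was sequenced from leaf of soil-grown wild-type Arabidopsis thaliana, ecotype Col-0 and 3 weeks old, after a single spray. The plants received 10 μM ABA, 10 μM AMF1β, 10 μM AMF4 or the solvent DMSO, and were taken 6, 24 or 72 h later. AMF1β and AMF4 are fluorinated derivatives of AM1, a synthetic compound that activates ABA receptors. The 12 groups hold 29 libraries, with 3 of every treatment at 6 h. At 24 h AMF4 has 2 and the others 3, and at 72 h each AMF has 2 while DMSO and ABA have 1. The deposited values are FPKM, read fragments scaled by transcript length and by the size of the library, and carry no read totals. Relative depth, judged by the spacing of low values, was 0.414 to 1.92 times the median library.

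R2R3 MYB proteins form one of the largest families of plant transcription factors, and they bind DNA through a pair of imperfect repeats, R2 and R3. Members with similar sequence outside these repeats are placed in subgroups. MYB41, MYB74 and MYB102 belong to subgroup 11, MYB96 to subgroup 1, MYB2 to subgroup 20, and MYB44, MYB73 and MYB77 to subgroup 22. ABA is the hormone that rises in drying plants, closes stomata and switches on protective genes. When it binds its PYR/PYL receptors, these inhibit clade A phosphatases, the SnRK2 kinases become active, and bZIP factors bind ABA-responsive elements (ABREs, with the core ACGTG) in promoters, those of other transcription factors included.

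The promoters of the subgroup 11 genes are shown because these were the members that held an ABRE core within the 300 bases before the annotated gene start. Sequences and positions are from RefSeq assembly TAIR10.1, are written 5′ to 3′ on the strand of the gene, and have each ABRE core, read on either strand, in capitals.
MYB102 promoter, chr4:11419770-11420069, minus strand: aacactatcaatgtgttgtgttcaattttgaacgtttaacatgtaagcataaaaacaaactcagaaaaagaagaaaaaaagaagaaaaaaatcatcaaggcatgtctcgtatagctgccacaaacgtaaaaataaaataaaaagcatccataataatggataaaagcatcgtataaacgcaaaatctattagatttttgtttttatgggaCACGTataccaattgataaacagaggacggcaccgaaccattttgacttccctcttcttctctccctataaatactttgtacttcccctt
MYB74 promoter, chr4:2618072-2618371, plus strand: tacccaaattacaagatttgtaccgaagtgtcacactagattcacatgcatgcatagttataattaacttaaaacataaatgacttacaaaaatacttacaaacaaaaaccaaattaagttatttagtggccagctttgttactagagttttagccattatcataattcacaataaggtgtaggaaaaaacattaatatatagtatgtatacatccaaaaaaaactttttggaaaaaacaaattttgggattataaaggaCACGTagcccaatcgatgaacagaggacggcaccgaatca
MYB41 promoter, chr4:13969526-13969825, minus strand: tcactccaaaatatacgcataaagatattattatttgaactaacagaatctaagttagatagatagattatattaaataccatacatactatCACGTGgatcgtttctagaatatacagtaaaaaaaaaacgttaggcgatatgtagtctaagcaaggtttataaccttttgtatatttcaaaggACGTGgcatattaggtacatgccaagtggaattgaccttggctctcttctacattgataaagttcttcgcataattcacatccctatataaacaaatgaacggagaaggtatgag
The first base of the match lay 90 bases before the start in MYB102 and 40 bases before it in MYB74. MYB41 held matches at 208, 207 and 115 bases, the first pair of which overlap within a G-box (CACGTG).
An ABRE core was thus in 3 of 8 promoters, while 25.6% of 27438 promoters of this length in the annotation hold at least 1 match and 9.94% at least 2. A single G-box, held by 7.09% of promoters, counts as 2 matches.

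The MYB102 and MYB74 promoters also share a run of 19 bases that starts 72 and 22 bases before the gene start, so that the ABRE core begins 18 bases ahead of it in both. It is printed because it was the longest run shared by any pair of the 8 promoters, the next being 13 bases (MYB41 and MYB77).
Shared run: aacagaggacggcaccgaa
MYB102 stretch from the ABRE core, chr4:11419823-11419859: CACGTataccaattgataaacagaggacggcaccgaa
MYB74 stretch from the ABRE core, chr4:2618332-2618368: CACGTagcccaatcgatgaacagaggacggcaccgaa
Over these 37 bases, which were chosen after the run had been seen, 33 were identical and 4 differed. The W-box (TTGACC or TTGACT), which WRKY factors bind, was in 4 of 8 promoters against 32.3% of all promoters. It had 3 matches in MYB2 and 1 each in MYB102, MYB41 and MYB77. The MYB site AACNG was in 7 of 8 against 76%, with MYB2 as the member lacking it and 8 matches in MYB73. No member held the dehydration-responsive element core CCGAC (0 of 8, against 13.9% of promoters). All motifs were searched on both strands, and a match describes the letters only.

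**Figure D1:**
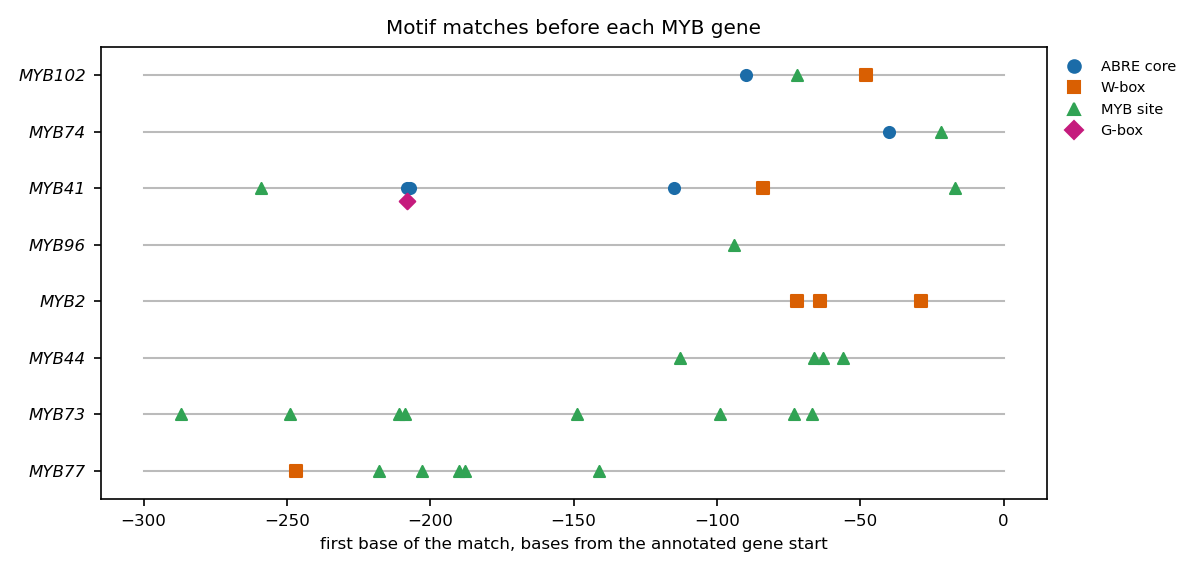
Matches to the ABRE core (circles), W-box (squares), MYB site AACNG (triangles) and G-box (diamond) in the 300 bases before each gene; the horizontal axis gives the first base of the match in bases from the annotated start. ABRE cores lie in the rows of MYB102, MYB74 and MYB41 and in no other row.

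In the TAIR10.1 annotation MYB102 lies on chromosome 4 from 11418199 to 11419769 (minus strand), MYB74 on chromosome 4 from 2618372 to 2619947 (plus) and MYB41 on chromosome 4 from 13968029 to 13969525 (minus). MYB73 is also on chromosome 4, from 17540490 to 17541799 (plus). MYB96 occupies 25078991 to 25081141 (minus) and MYB44 26854022 to 26856006 (plus) on chromosome 5, MYB2 19375985 to 19377543 (plus) on chromosome 2, and MYB77 18557607 to 18559326 (minus) on chromosome 3. The subgroup 22 genes MYB44, MYB73 and MYB77 have 1 exon each, and the others have 3, with 2 in a second transcript of MYB41. MYB44 overlaps AT5G67310, a cytochrome P450 gene on the opposite strand, by 791 bases, and that gene was listed at 0 to 1.99 FPKM. MYB44 also overlaps the RNA genes AT5G09855 (258 bases, opposite strand) and AT5G09865 (187 bases, same strand), for which no FPKM was listed. MYB73 overlaps HMA1 (AT4G37270), a metal transporter gene at 24.1 to 45.6 FPKM, by 29 bases on the opposite strand. Whether reads were counted by strand is not given in the sources used here, so reads in these overlaps could belong to either gene. In the overlap with AT5G09865 they could do so even if counted by strand.

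Leaf markers (5 light-harvesting and Rubisco genes) summed to 13033 to 58641 FPKM over all libraries. Of the markers of other tissues, root markers summed to 0.330 to 5.09 FPKM, with EXPA7 at 0 in every library, and flower markers to 0.310 to 1.53. Shoot meristem markers were above 0 in 1 library, AMF4 6 h replicate 1 (2.54), and CLV3 was at 0 throughout. That library also had the lowest relative depth and listed 21835 genes at 1 FPKM or more, against 16265 to 16872 in the other 28. DMSO 6 h replicate 3 stood apart from the other DMSO libraries at 6 h in LHY, a morning gene of the circadian clock, at 0.436 FPKM against 27.9 and 10.6. The treated libraries at 6 h were at 0.433 to 0.983, so replicate 3 was the DMSO library like them in LHY. Each 6 h result is also given without AMF4 6 h replicate 1 and DMSO 6 h replicate 3 together where that changes the call. No alternative left out DMSO 6 h replicates 1 and 2 together. The paper calls its replicates biological, but whether replicate libraries are separate plants or sprays is not stated. The spread behind each p-value may then be partly technical.

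By level, MYB44 and MYB96 were the most abundant members and MYB41 was barely detected. FPKM is scaled by transcript length, so levels can be set side by side. Over the 29 libraries MYB44 had a median of 75.9 FPKM (23.8 to 147), MYB96 31.7 (11.49 to 81.8) and MYB73 31.1 (6.12 to 120). MYB102 had a median of 9.81 (1.01 to 23.5), MYB77 of 9.60 (4.17 to 24.4), MYB74 of 9.18 (0.585 to 23.3) and MYB2 of 2.76 (1.09 to 14.2). MYB41, which activates suberin and cutin synthesis genes, was listed at 0 in 16 of 29 libraries and reached 1 FPKM in 1, AMF4 6 h replicate 1 (1.71). In both AMF1β libraries at 72 h it was at 0.563 and 0.433, and at 0.147 in the DMSO library of that time. MYB41 did not pass the filter of 1 FPKM in at least 2 libraries, so 7 of 8 members were tested.

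**Figure D2:**
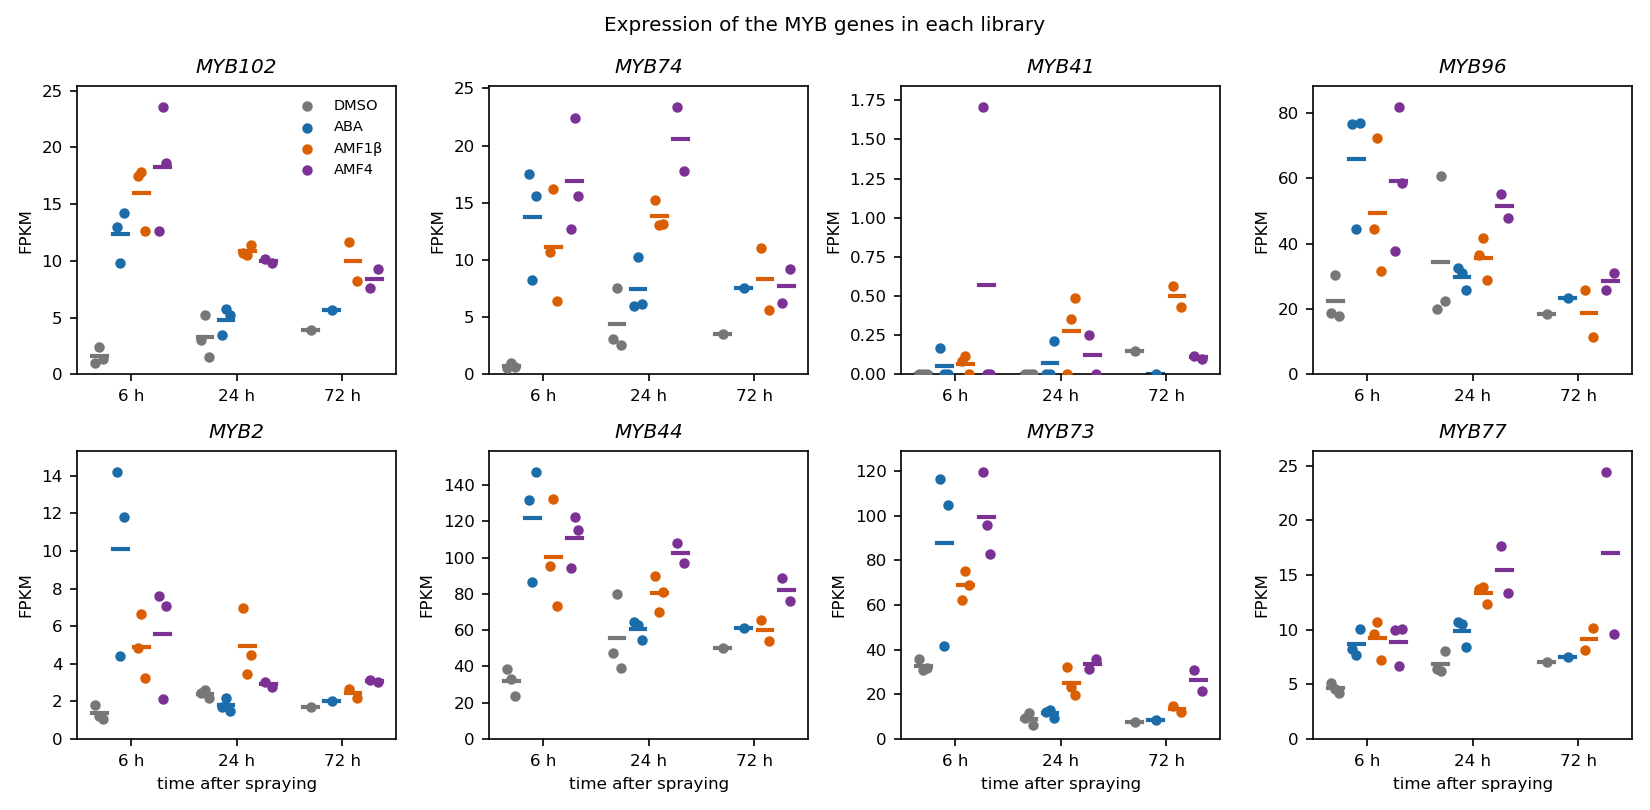
FPKM of each MYB gene (vertical axis, from 0, own scale per panel) in each of the 29 libraries (points) by time after spraying, coloured by treatment, with the group mean as a bar. At 6 h the libraries of the 3 compounds lie above every DMSO library in all panels but that of MYB41, where most points are at 0. How many of all genes separate in this way was not counted.

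At 6 h, 6 of the 7 tested members were higher than in DMSO with either ABA or AMF4 and 5 with AMF1β, and none was lower. A gene was called when its adjusted p in limma, by the Benjamini-Hochberg method over 18521 genes, was under 0.05 and it differed more than 2-fold in log2(FPKM + 1), a scale that understates the change of low genes. The share of all genes called higher was 3.71% with ABA, 2.69% with AMF1β and 4.21% with AMF4. The members were chosen with earlier results of these data known, so these shares give context and are not a test. The median log2 difference of the tested members was 1.90, 1.28 and 1.55 for the respective compounds, and that of all tested genes was 0.01, 0.05 and 0.09. An unadjusted p under 0.05 by limma was met by 5935 genes with ABA, 6002 with AMF1β and 7569 with AMF4. All 7 tested members met it with each compound. How many of all genes had every treated library above every DMSO library was not counted. In bulk leaf RNA, fewer cells that express a gene and less RNA per cell cannot be told apart.

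MYB102 and MYB74, both of subgroup 11, had the largest differences. MYB102 responds to wounding and osmotic stress and is known from ABA-treated plants. Its level at 6 h was 1.01, 2.42 and 1.32 FPKM in the DMSO libraries, and 13.0, 9.82 and 14.2 with ABA. With AMF1β it was 17.4, 17.8 and 12.7, and with AMF4 12.6, 23.5 and 18.6. The groups did not overlap, and the lowest treated library was above the highest DMSO library. Its log2 difference from DMSO was 2.39 after ABA, 2.74 after AMF1β and 2.90 after AMF4. The standard error (SE) was 0.27 in each case and no adjusted p was above 4.41e-06 in limma.

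MYB74, which has been linked to salt stress, was the least expressed of the tested members in DMSO at 6 h, at 0.585, 0.964 and 0.623 FPKM. ABA libraries held 17.5, 8.24 and 15.6, AMF1β libraries 10.7, 16.2 and 6.37, and AMF4 libraries 12.7, 22.4 and 15.6. Again every treated library was above every DMSO library, and mean FPKM was 19.0 times that of DMSO with ABA, 15.3 times with AMF1β and 23.3 times with AMF4. On the log2 scale the differences were 3.04, 2.73 and 3.35 (SE 0.34, with 2.87e-05 as the highest adjusted p by limma). The calls of MYB102 and MYB74 at 6 h held in all 36 alternatives.

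MYB96, an ABA-induced activator of cuticular wax synthesis, was at 18.6, 30.5 and 17.7 FPKM in DMSO, 76.5, 44.6 and 76.9 with ABA, 44.4, 72.4 and 31.7 with AMF1β, and 37.7, 81.8 and 58.4 with AMF4. No treated library was as low as the highest DMSO library, although the lowest AMF1β library came close to it. It was called with ABA (1.52, SE 0.38, adjusted p = 0.00708 by limma) and AMF4 (1.35, adjusted p = 0.0122) but not with AMF1β (adjusted p = 0.0513), where the 95% interval was 0.29 to 1.87. The AMF4 call needed AMF4 6 h replicate 2 (adjusted p = 0.0603 by limma when it was left out), and the AMF1β difference was called in 12 of 36 alternatives.

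MYB2, an activator of dehydration genes such as RD22 and ADH1, rose from 1.80, 1.25 and 1.09 FPKM in DMSO to 14.2, 4.39 and 11.8 with ABA. It was 4.83, 6.63 and 3.25 with AMF1β and 7.61, 2.13 and 7.10 with AMF4. All treated libraries lay above all DMSO libraries, and AMF4 replicate 2 lay just above them. The log2 differences were 2.11, 1.28 and 1.35 (SE 0.35 each, adjusted p = 0.000219, 0.0130 and 0.00666 by limma). The AMF1β call was lost without AMF1β 6 h replicate 2 (1.07, adjusted p = 0.0654) and in a fit to the 6 h libraries alone (adjusted p = 0.0648, limma). Without AMF4 replicate 1 and DMSO replicate 3 together the AMF4 value was 1.00 (adjusted p = 0.0865 by limma).

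In subgroup 22, MYB44 and MYB73 were at higher FPKM than MYB77 in every DMSO library at 6 h. MYB44, which promotes stomatal closure, stood at 38.6, 33.0 and 23.8 FPKM in DMSO, 132, 86.7 and 147 with ABA, 95.2, 132 and 73.2 with AMF1β, and 94.4, 122 and 115 with AMF4. The ranges of each compound and of DMSO were apart. The rises were 1.90, 1.61 and 1.79 on the log2 scale (SE 0.25, highest adjusted p 0.000136 by limma), and they were called in all 36 alternatives.

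MYB73, a salt stress regulator, was at 35.7, 31.1 and 32.0 FPKM in DMSO at 6 h and at 117, 41.7 and 105 with ABA. AMF1β libraries had 62.2, 75.3 and 68.9 and AMF4 libraries 120, 96.0 and 83.0. The second ABA library was close to DMSO and the other treated libraries were well above it. The log2 differences were 1.26 (SE 0.28, adjusted p = 0.00320 by limma), 1.04 (adjusted p = 0.0133) and 1.55 (adjusted p = 0.000436). Without ABA 6 h replicate 1 the ABA difference was 0.99, and the AMF1β difference was 1.00 without DMSO 6 h replicate 2 and 0.97 without AMF1β 6 h replicate 2, each below the fold threshold.

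MYB77, which acts with auxin response factors in root branching, was at 5.15, 4.59 and 4.17 FPKM in DMSO, 8.23, 7.67 and 10.0 with ABA, 9.60, 10.7 and 7.25 with AMF1β and 9.98, 6.65 and 10.08 with AMF4. Here too the treated libraries lay above the DMSO libraries. Its log2 differences of 0.77, 0.84 and 0.80 had adjusted p of 0.0205, 0.0130 and 0.0131 by limma and stayed below the fold threshold.

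ABA 6 h replicate 2 was the lowest ABA library of that time for all 7 tested members, and its wound and touch genes summed to 77.3 FPKM against 151 and 115 in the other ABA libraries. AMF1β 6 h replicate 2 was the highest of its group for all 7. Without this AMF1β library 3 members were called with AMF1β in place of 5. LHY was at 0.433 to 0.983 FPKM in the treated libraries at 6 h. The part of the clock in the differences of the MYB genes was not tested. Guard cell markers summed to 127 to 152 FPKM in DMSO at 6 h and to 41.3 to 51.1 with ABA, 41.1 to 54.3 with AMF1β and 30.1 to 49.04 with AMF4. The sums followed GC1, which was lower with all 3 compounds (-3.64, -2.40 and -2.91, adjusted p at most 4.02e-05 by limma). ABA and AMF1β each had 2 of the 5 markers called lower, GC1 and MYB60, and AMF4 had GC1. MYB60 was not called with AMF4, although it was at 3.02 to 4.99 FPKM there. It was at 3.03 to 5.48 with ABA and at 8.02 to 10.4 in DMSO. The median of the 5 was -0.22, -0.59 and -0.41. The share of all genes called lower was 3.24%, 3.28% and 4.35% at 6 h for the respective compounds. Leaf markers summed to 32022 to 49125 FPKM in DMSO at 6 h, 23317 to 32786 with ABA, 24587 to 35692 with AMF1β and 13033 to 28292 with AMF4, where the sums lay below those of DMSO in each library. The leaf genes called lower were LHCB1.1 and RBCS1A, both with AMF4, 2 of 5 against none with ABA or AMF1β, and the median of the 5 was -0.50, -0.31 and -0.98. The part of either marker list in the result was not tested.

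**Figure D3:**
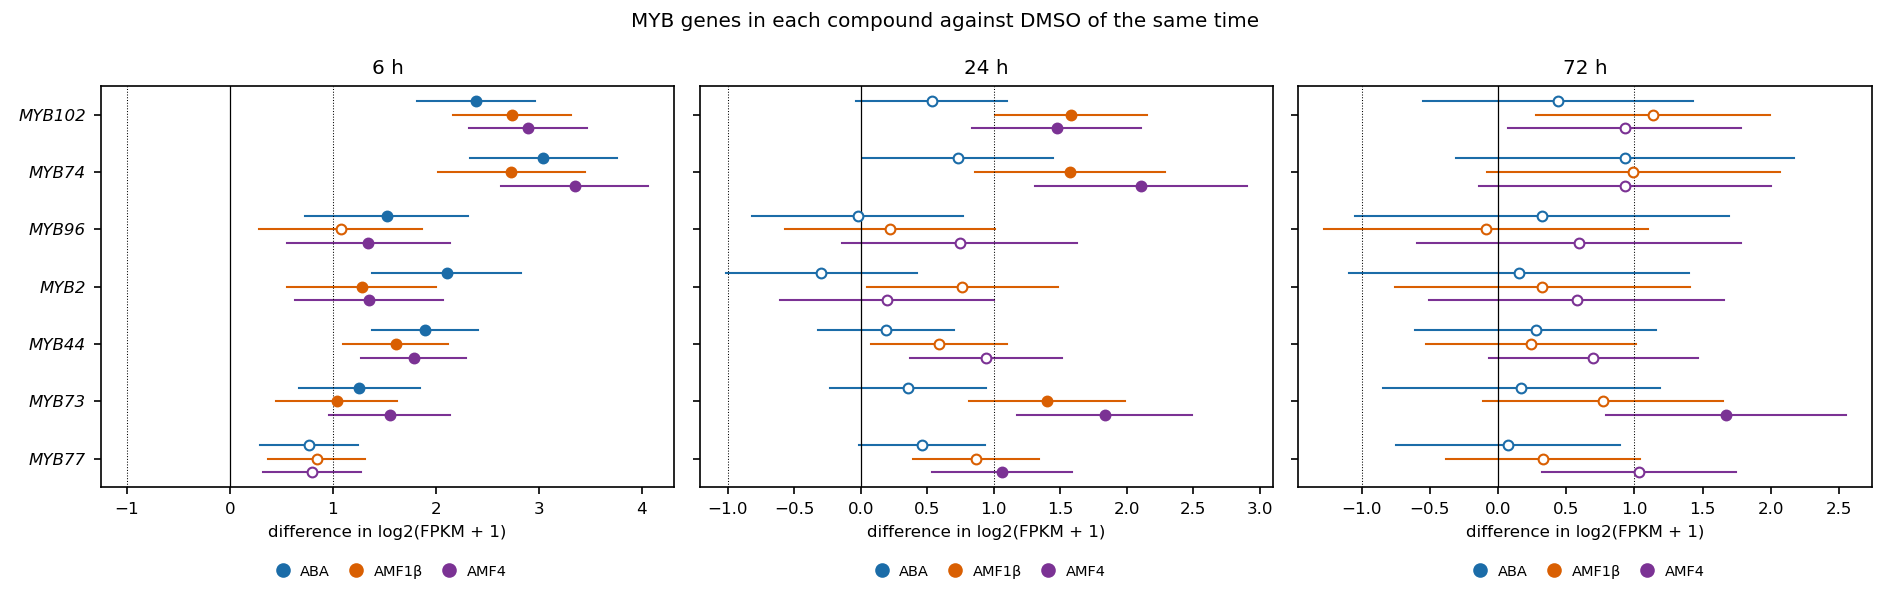
Difference of each compound from DMSO of the same time in log2(FPKM + 1) (horizontal axis, with 95% intervals from the limma fit) for the 7 tested MYB genes at 6, 24 and 72 h; filled points were called, and dotted lines mark the fold thresholds. Filled points number 6, 5 and 6 at 6 h, 0, 3 and 4 at 24 h, and 0, 0 and 1 at 72 h for ABA, AMF1β and AMF4.

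By 24 h no tested member was called with ABA (0 of 7 by limma, 1 at an unadjusted p under 0.05), whereas 3 were higher with AMF1β and 4 with AMF4. Of 18521 genes 2582 had an unadjusted p under 0.05 with ABA, in either direction. The share of all genes called higher was 0.232% with ABA, 1.05% with AMF1β and 2.12% with AMF4. The members' median log2 difference was 0.35, 0.87 and 1.06, beside -0.02, -0.01 and -0.01 for all genes.
MYB102 was at 3.01, 5.25 and 1.48 FPKM in DMSO and at 3.45, 5.75 and 5.26 with ABA, and the 2 groups overlapped. With AMF1β it was at 10.7, 10.5 and 11.4 and with AMF4 at 10.2 and 9.81, above every DMSO and ABA library. The differences from DMSO were 0.53 with ABA (95% interval -0.04 to 1.1), 1.58 with AMF1β (SE 0.27, adjusted p = 0.00242 by limma) and 1.47 with AMF4 (SE 0.31, adjusted p = 0.00431). Leaving out either AMF4 library raised its adjusted p to 0.0556 or 0.0509 (limma).

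MYB74 showed the same order. It was at 3.04, 7.55 and 2.56 FPKM in DMSO, 5.94, 10.3 and 6.15 with ABA, 15.3, 13.1 and 13.2 with AMF1β, and 23.3 and 17.8 with AMF4. AMF1β and AMF4 libraries lay above all DMSO and ABA libraries, and ABA libraries overlapped DMSO. The differences from DMSO were 0.73 (95% interval 0.01 to 1.44, adjusted p = 0.346), 1.57 (SE 0.34, adjusted p = 0.0122) and 2.11 (SE 0.38, adjusted p = 0.00150, limma). Its AMF1β call depended on DMSO 24 h replicate 3 and on AMF1β 24 h replicate 1, with adjusted p of 0.0648 and 0.0581 by limma when they were omitted.

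MYB73 was at 9.27, 11.6 and 6.12 FPKM in DMSO, 12.01, 12.8 and 9.65 with ABA, 32.1, 23.4 and 19.9 with AMF1β, and 31.4 and 36.0 with AMF4. The AMF groups were apart from DMSO and ABA. It was higher by 1.40 with AMF1β (SE 0.28, adjusted p = 0.00815 by limma) and by 1.83 with AMF4 (SE 0.32, adjusted p = 0.000911), and its difference with ABA was 0.35 (95% interval -0.23 to 0.94). Without AMF1β 24 h replicate 1 the AMF1β adjusted p was 0.0528 by limma.

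MYB77 was at 6.39, 6.20 and 8.02 FPKM in DMSO, 10.7, 10.5 and 8.40 with ABA, 13.7, 13.9 and 12.3 with AMF1β, and 17.6 and 13.4 with AMF4. All treated libraries were above the DMSO libraries. The call was made with AMF4 (1.06, SE 0.25, adjusted p = 0.0111 by limma) but not when AMF4 24 h replicate 1 was omitted (0.87, adjusted p = 0.167). The AMF1β difference of 0.87 had an adjusted p of 0.0319 by limma, below the fold threshold.

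MYB96, MYB2 and MYB44 were not called with any compound at 24 h. MYB44 ran from 39.2 to 79.9 FPKM in DMSO and was at 108 and 97.1 with AMF4, a log2 difference of 0.94 (adjusted p = 0.0351 by limma) that is just below the fold threshold. MYB2 was at 6.96, 3.47 and 4.45 with AMF1β and at 2.16 to 2.63 in DMSO (0.76, 95% interval 0.04 to 1.48). MYB96 was at 60.6 FPKM in DMSO 24 h replicate 2, above every treated library of that time, and at 19.98 and 22.6 in the other DMSO libraries.

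DMSO 24 h replicate 2 was the highest DMSO library of its time for 6 of the 7 members, and its wound and touch genes summed to 301 FPKM, against 210 and 188. Without it MYB44 was called with AMF4 (1.23, adjusted p = 0.00728 by limma), and 5 members were then higher with AMF4. AMF1β 24 h replicate 1, with the highest wound and touch sum (385 FPKM), decided 2 of the 3 AMF1β calls, and without it 1 member was called. AMF4 24 h replicate 1 was the higher AMF4 library for 6 of 7 members, and without it 2 of the 4 AMF4 calls were made. Wound and touch sums were 107 to 150 with ABA, 191 to 385 with AMF1β and 155 to 178 with AMF4, and 188 to 301 in DMSO, so that ABA and AMF4 sums lay below those of DMSO and AMF1β sums overlapped them. By limma 0 of the 10 genes were called lower with any compound, and those lower at an unadjusted p under 0.05 numbered 5 for ABA, 0 for AMF1β and 1 for AMF4. TCH4 was called higher with AMF4. The share of all genes called lower was 0.491%, 0.794% and 2.36% at 24 h. At an unadjusted p under 0.05 by limma, 2582, 4084 and 4163 of 18521 genes passed in either direction. The part of the wound and touch genes in the levels of the MYB genes was not tested.

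At 72 h 1 member was called, MYB73 with AMF4. The groups of DMSO and ABA hold 1 library each, and the test assumes that these vary like the other groups. MYB73 was at 7.44 FPKM in DMSO, 8.50 with ABA, 14.9 and 12.1 with AMF1β, and 30.9 and 21.6 with AMF4. The AMF4 libraries were above all others of that time, with a log2 difference from DMSO of 1.67 (SE 0.42, adjusted p = 0.0469 by limma). It lost its call in 21 of 37 alternatives. The difference was 1.42 without AMF4 72 h replicate 1 and 1.92 without replicate 2. Wound and touch genes summed to 302 FPKM in AMF4 72 h replicate 1, 168 in replicate 2 and 177 in DMSO. Of these 10 genes 1 was called higher than DMSO with AMF4 (ZAT12, 1.73). The part of wounding or touch in the level of MYB73 was not tested. The share of all genes called higher was 0% with ABA, 0.0108% with AMF1β and 1.12% with AMF4. By limma 0 members were called with ABA, none at an unadjusted p under 0.05, and 0 with AMF1β, 1 at an unadjusted p under 0.05. Of 18521 genes 338 with ABA and 764 with AMF1β had an unadjusted p under 0.05, in either direction.

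MYB102 was at 3.94 FPKM in DMSO, 5.71 with ABA, 11.7 and 8.26 with AMF1β and 7.60 and 9.24 with AMF4 at 72 h. Its differences from DMSO were 1.13 (95% interval 0.28 to 1.99) with AMF1β and 0.93 (0.07 to 1.78) with AMF4, neither of which passed the test. With the DMSO libraries of 24 and 72 h pooled as the control, MYB102 was called with AMF1β (1.37, adjusted p = 0.0124) and AMF4 (1.17, adjusted p = 0.00934), and MYB77 with AMF4 (1.06, adjusted p = 0.00454, limma).
MYB77 at 72 h rested on 1 library. It was at 24.4 FPKM in AMF4 72 h replicate 1 and at 9.64 in replicate 2, beside 7.04 in DMSO, 7.47 with ABA and 8.14 and 10.2 with AMF1β. The wound and touch sum of AMF4 72 h replicate 1 was 302 FPKM, against 106 to 177 in the other libraries of that time. Without replicate 2 it was called with AMF4 (1.66, adjusted p = 0.00638 by limma). The part of wounding or touch in this value was not tested. MYB74, MYB96, MYB2 and MYB44 differed from DMSO by -0.08 to 0.99 on the log2 scale at 72 h, with no call.

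Compared directly at 24 h, MYB73 was higher with both AMFs than with ABA, MYB102 with AMF1β and MYB74 with AMF4. Dose and time matched in these comparisons, but wound and touch genes were called in them too. With AMF1β 3 of 10 were higher than with ABA (TCH3, ZAT12 and WRKY40), against 1.3% of all genes. With AMF4 2 of 10 were higher (TCH4 and ZAT12), against 1.38%, and none was lower with either. The part of wounding or handling in the differences of the MYB genes was not tested. AMF1β exceeded ABA by 1.05 in MYB102 (SE 0.27, adjusted p = 0.0396 by limma) and by 1.05 in MYB73 (SE 0.28, adjusted p = 0.0457), so that 2 of 7 members were higher, against 1.3% of all genes. AMF4 exceeded ABA by 1.48 in MYB73 (SE 0.32, adjusted p = 0.0105) and by 1.38 in MYB74 (SE 0.38, adjusted p = 0.0495, limma), 2 of 7 against 1.38% of all genes. The libraries of ABA and of the AMF named did not overlap in any of these 4 comparisons, and how often this holds among all genes was not counted.
Of these calls MYB74 lost its AMF4 call in 22 of 36 alternatives and MYB73 in 3, while with AMF1β MYB73 lost its call in 18 and MYB102 in 11. MYB2 was 1.06 higher with AMF1β than with ABA, a difference that did not pass the test (adjusted p = 0.102 by limma) but passed without ABA 6 h replicate 2 (0.0478) or AMF4 6 h replicate 2 (0.0437) and in a fit to the 24 h libraries alone (0.0261). The other differences of AMFs from ABA at 24 h ran from 0.24 to 0.94, all above 0.

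At 6 h no member differed between an AMF and ABA by the test, where 0.367% of all genes were called for AMF1β and 0.508% for AMF4 in either direction. MYB2 was the member with the lowest values relative to ABA, -0.82 with AMF1β (95% interval -1.54 to -0.10) and -0.76 with AMF4 (-1.48 to -0.04), with adjusted p of 0.356 and 0.220 by limma. At 72 h no member differed from ABA, with 0% and 0.626% of all genes called. MYB73 with AMF4 was 1.50 above ABA there (95% interval 0.62 to 2.38, adjusted p = 0.0976 by limma, and 0.0257 without ABA 6 h replicate 2).
AMF4 and AMF1β differ in the fluorine substitution of the benzyl ring. No MYB gene differed between them at any time, with 0% of all genes called at 6 h, 0% at 24 h and 0.054% at 72 h in either direction. Without AMF4 72 h replicate 2, MYB77 was called higher with AMF4 at 72 h (1.33, adjusted p = 0.0187 by limma). The intervals do not show that they act alike. At 24 h the interval of AMF4 minus AMF1β was -0.27 to 1.33 for MYB74, -0.22 to 1.09 for MYB73 and -0.75 to 0.53 for MYB102, and at 72 h that of MYB73 was 0.18 to 1.62 (adjusted p = 0.299 by limma).

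**Figure D4:**
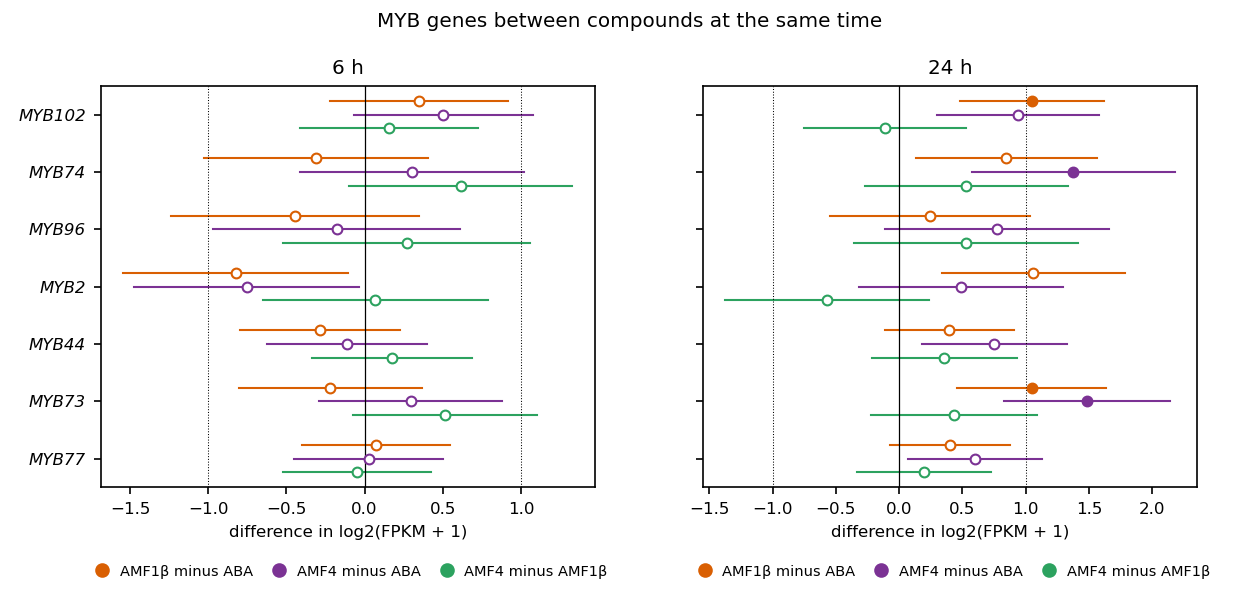
Difference between compounds at the same time in log2(FPKM + 1) (horizontal axis, with 95% intervals from the limma fit) for the 7 tested MYB genes at 6 and 24 h; filled points were called, and dotted lines mark the fold thresholds. Filled points appear at 24 h only, for MYB102 and MYB73 with AMF1β and for MYB74 and MYB73 with AMF4, each against ABA.

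Between 6 and 24 h the members moved apart even in DMSO. MYB73 fell by 1.80 on the log2 scale in DMSO (SE 0.28, adjusted p = 4.04e-05 by limma), from 31.1 to 35.7 FPKM down to 6.12 to 11.6, where 6.67% of all genes were lower. MYB74 rose by 1.53 (SE 0.34, adjusted p = 0.00138 by limma), where 7.9% of all genes were higher. LHY ran from 0.436 to 27.9 FPKM in DMSO at 6 h and from 132 to 240 at 24 h, and TOC1, an evening gene of the clock, from 34.5 to 37.2 and from 3.43 to 4.58. Time after spraying and time of day cannot be told apart in this step.
With ABA 4 of 7 members were lower at 24 h than at 6 h, where 6.89% of all genes were lower. MYB73 fell by 2.71 (adjusted p = 1.82e-07), MYB2 by 1.87 (adjusted p = 0.000248), MYB102 by 1.20 (adjusted p = 0.00181) and MYB96 by 1.08 (adjusted p = 0.0348, limma), the last of which was lost in 6 of 35 alternatives. With AMF1β and with AMF4 MYB73 was the member that fell, by 1.44 and 1.52 (adjusted p at most 0.000885 by limma), where 5.7% and 7.62% of all genes were lower. From 24 to 72 h no member was called in any treatment, and the share of all genes called in either direction was 0.0162% in DMSO, 0.0324% with ABA, 0.702% with AMF1β and 3.68% with AMF4. MYB74 with AMF4 had the lowest value in that step, -1.32 (SE 0.42, adjusted p = 0.0585 by limma).

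The loss of the ABA difference between 6 and 24 h was tested as an interaction, the change of the difference from DMSO. It was lower than 0 for 4 of 7 members with ABA, where 2.99% of all genes were lower. The change was -1.86 for MYB102 (SE 0.39), -2.32 for MYB74 (SE 0.49), -2.40 for MYB2 (SE 0.49) and -1.71 for MYB44 (SE 0.35), with adjusted p of 0.00517 to 0.00607 by limma, and all 4 held in each of 35 alternatives. For MYB96 it was -1.55 (adjusted p = 0.0820), for MYB73 -0.91 (adjusted p = 0.177) and for MYB77 -0.31 (adjusted p = 0.617, limma). The interaction takes in the change in DMSO as well as that with ABA. Mean log2(FPKM + 1) of MYB74 rose from 0.78 to 2.31 in DMSO and fell from 3.82 to 3.04 with ABA. That of MYB44 rose from 5.01 to 5.75 in DMSO and fell from 6.90 to 5.94 with ABA. Neither fall was called in the reported fit. Without ABA 6 h replicate 2 both were, at -1.19 for MYB44 (adjusted p = 0.00145) and -1.09 for MYB74 (adjusted p = 0.0292, limma). The fall of MYB44 was also called without ABA 24 h replicate 1 (-1.01, adjusted p = 0.0109 by limma). MYB102 (1.33 to 1.99) and MYB2 (1.24 to 1.77) also rose in DMSO, and their falls with ABA were called.
With AMF4 the change was called for MYB102, at -1.42 (SE 0.41, adjusted p = 0.0362 by limma), 1 of 7 against 2.81% of all genes, and was lost in 9 of 35 alternatives. With AMF1β it was called for 0 of 7, against 0.4% of all genes called lower. At an unadjusted p under 0.05 by limma there were 3 of 7 members, against 2684 of 18521 genes in either direction. That the change with an AMF differed from that with ABA was not shown for any member, with 1.11% of all genes called for AMF1β and 2.47% for AMF4 in either direction. MYB2 came nearest, 1.88 above the change with ABA for AMF1β (SE 0.49, adjusted p = 0.0611 by limma). Here single libraries decided the call. MYB2 passed for AMF1β without AMF1β 6 h replicate 2 (adjusted p = 0.0403) or AMF4 6 h replicate 2 (adjusted p = 0.0205, limma). Without ABA 6 h replicate 2 the change differed from that of ABA for MYB2 by 2.34 with AMF1β and 1.70 with AMF4 (adjusted p = 0.00571 and 0.0385), and for MYB73 by 1.73 and 1.65 (adjusted p = 0.00372 and 0.00644, limma).

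**Figure D5:**
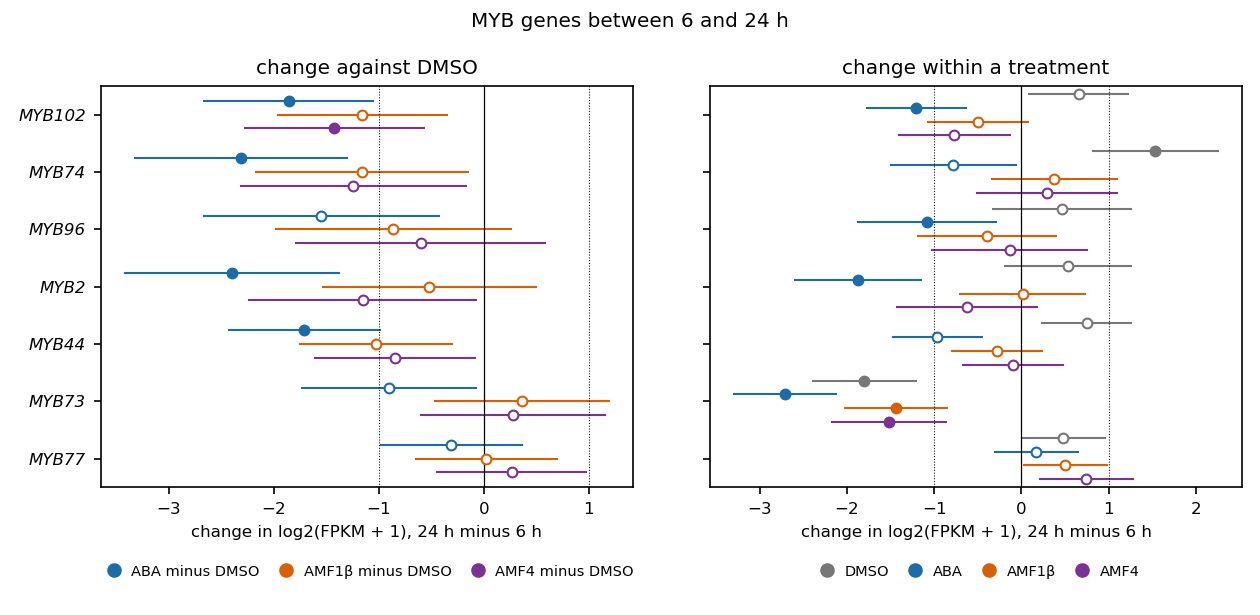
Change from 6 to 24 h in log2(FPKM + 1) (horizontal axis, with 95% intervals from the limma fit) for the 7 tested MYB genes, as the change of the difference from DMSO (left) and as the change within a treatment (right); filled points were called. On the left MYB102, MYB74, MYB2 and MYB44 are filled for ABA and MYB102 for AMF4, and on the right MYB73 is filled in all 4 treatments.

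The members did not share one course over the 12 groups. Across group means of log2(FPKM + 1), Pearson r between tested members ran from 0.17 (MYB73 and MYB77) to 0.93 (MYB74 and MYB44). MYB102 and MYB74 had r of 0.89. These describe 12 points that share controls and times of day. In the order of group means, most neighbouring groups overlapped in their libraries, 9 of 11 neighbours for MYB102, 10 of 11 for MYB74 and MYB96, 8 of 11 for MYB2, 9 of 11 for MYB44 and 7 of 11 for MYB73 and MYB77. Groups with 1 library count as overlapping where their value lies within the range of the neighbour. The highest group mean was AMF4 at 6 h for MYB102 (18.3 FPKM) and MYB73 (99.5), AMF4 at 24 h for MYB74 (20.6), ABA at 6 h for MYB96 (66.0), MYB2 (10.13) and MYB44 (122), and AMF4 at 72 h for MYB77 (17.0).

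The genes whose group means were most like each member's, by Pearson r over the 12 groups among all genes tested, were named by rule. For MYB102 they were HVA22B (AT5G62490, 0.955) and AT1G57980 (0.945), and for MYB74 ALP (AT5G60360, 0.964) and AIRP2 (AT5G01520, 0.959). RD26 (AT4G27410, 0.961), a NAC transcription factor of drought, and AT4G03820 (0.954) were most like MYB96. MYB2 was most like AT4G33540 (0.973) and ORP3B (AT3G09300, 0.963), and MYB44 most like GLY3 (AT1G53580, 0.974) and HAI2 (AT1G07430, 0.957), a clade A phosphatase. MYB73 had the closest match, UGT85A5 (AT1G22370, 0.992), followed by J8 (AT1G80920, 0.978). For MYB77 these genes were AT4G38690 (0.949) and AT1G02816 (0.938).

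Of 11 other genes of the same subgroups 7 were tested, and they moved in both directions. At 6 h 1 was higher and 2 lower with ABA, 1 and 2 with AMF1β, and 2 and 0 with AMF4, where 3.71%, 2.69% and 4.21% of all genes were higher and 3.24%, 3.28% and 4.35% lower. MYB112, which is in the subgroup of MYB2, rose by 1.59 with ABA and 1.20 with AMF4 at 6 h, and by 1.41 with AMF4 at 24 h (adjusted p at most 0.00209 by limma). MYB60, a guard cell factor that keeps stomata open and belongs with MYB96 to subgroup 1, was lower with ABA (-1.03) and AMF1β (-1.40) at 6 h and with AMF1β (-1.51) and AMF4 (-2.26) at 24 h (adjusted p at most 0.0175 by limma). At 24 h 4 were higher and 2 lower with AMF4, against 2.12% and 2.36% of all genes, and 0 were higher and 1 lower with AMF1β, against 1.05% and 0.794%. Of 7 further R2R3 MYB genes linked to ABA 5 were tested, and 2 were called against DMSO. MYB13 was higher with AMF4 at 6 h, 24 h (1.86) and 72 h (1.94), with adjusted p at most 0.00928 by limma. MYB20 was lower at 6 h with AMF1β (-1.09, adjusted p = 0.0127 by limma) and AMF4 (-1.41, adjusted p = 0.00139).

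Genes reported as targets of the members were higher mainly at 6 h, where ABA had 7 of 15 tested, AMF1β 3 and AMF4 6, and none was lower. Of all tested genes 3.71%, 2.69% and 4.21% were higher at 6 h with the respective compounds. Like the other gene lists, the list of targets was chosen with earlier results of these data known. Its counts beside these shares are therefore not a test. LTP3, a lipid transfer protein gene that MYB96 activates, was at 119 to 275 FPKM in DMSO and at 2013 to 3273 with ABA at 6 h, and it rose by 3.99, 2.60 and 2.92 on the log2 scale with the 3 compounds (adjusted p at most 0.000151 by limma). ADH1, an alcohol dehydrogenase gene that MYB2 activates, rose by 2.49, 1.45 and 1.88 (adjusted p at most 0.000663 by limma). RD22, the other dehydration gene named above, did not pass in any comparison with DMSO. GH3.5, an auxin-conjugating enzyme gene, rose by 1.95, 1.68 and 2.03 at 6 h, and by 1.71 with AMF1β and 1.48 with AMF4 at 24 h (adjusted p at most 0.00395 by limma). CER1, which makes wax alkanes, was called with ABA (3.60) and AMF4 (2.08) at 6 h. So were ASFT (2.08 and 1.27) and KCS2 (1.90 and 1.11), while CER3 was called with ABA (1.28). Which member, if any, acted on these genes was not tested, and MYB41 was itself too low to test. At 24 h ABA and AMF1β each had 1 target higher and AMF4 had 2, where 0.232%, 1.05% and 2.12% of all genes were higher. At 72 h no compound had any. LTP3 was called at 24 h with ABA (1.69, adjusted p = 0.0423) and AMF4 (2.52, adjusted p = 0.00127, limma), where MYB96 was not called. With AMF4 LTP3 was at 1055 to 1748 FPKM at 6 h and at 2757 to 2960 at 24 h.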

How the data were processed

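The authors aligned reads to TAIR10 with TopHat and made FPKM values per gene with Cufflinks, which they deposited for 29 libraries. The submitters' processing notes name TopHat2. No software version was found in the paper or labels. The study's methods mention biological replicates in duplicate, whereas groups here have 1 to 3 libraries, all used. Column names gave every library its group, and 0 columns were left unassigned. Of 33559 genes, 18521 with at least 1 FPKM in 2 libraries were tested. The members and the gene lists were chosen with earlier results of these data known. Named genes are the members, the listed genes and, for each member, the 2 genes most correlated with it.

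One limma 3.58.1 model (R 4.3.3) with a mean per group was fitted to log2(FPKM + 1), with a trend of the spread and 17 residual degrees of freedom. Its two-sided p was adjusted by Benjamini-Hochberg within each comparison. The fit was tested on simulated data. FPKM sums were 763464 to 1140081 and 0 pairs of libraries were identical. Same-numbered replicates did not pair (median correlation of deviations -0.0043, 25 of 111 over 0.1). Alternatives were a pseudocount of 0.1, other filters, median-of-ratios scaling, quantile normalization, no trend, a replicate block, one time only, pooled DMSO as the 72 h control, and libraries left out. The table holds no coordinates, and no table of promoters was used, so positions and the 300-base promoters come from RefSeq TAIR10.1, joined by locus ID. Stretches of 49 bases of a member that recur elsewhere in the genome, where reads could be shared, numbered 5 of 1645 in MYB96 and 0 in the others.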

Additional observations from a re-analysis of the deposited data

Results flagged for a closer look

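The difference from DMSO changed between 6 and 24 h, by the interaction test, in 5 cases. With ABA the change was -1.86 for MYB102, -2.32 for MYB74, -2.40 for MYB2 and -1.71 for MYB44 on the log2 scale, all from a called rise at 6 h to no call at 24 h. The DMSO means of these genes rose over the same step. With AMF4 the change was -1.42 for MYB102, from 2.90 at 6 h to 1.47 at 24 h, both called. The groups were too small for a test of single outlying libraries.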

How the results depend on the processing

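No difference that was called, in the reported fit or under an alternative, changed sign. Differences that were called in neither did so in 74 of 7742 values, in 38 of 217 results of at most 0.465 in size as reported, among them MYB96 with ABA against DMSO at 24 h (-0.02, and 0.47 without DMSO 24 h replicate 2) and MYB74 with AMF4 against ABA at 72 h (-0.00274, and 0.25 without AMF4 72 h replicate 1). For single genes with one library left out, 29 results against DMSO were weaker and 11 stronger, and 1661 stayed as reported. Under the other alternatives 5 were weaker, 6 stronger and 577 as reported.
With single libraries left out, the number of MYB genes higher than DMSO at 6 h was 5 to 6 with ABA, 3 to 6 with AMF1β and 5 to 6 with AMF4. At 24 h it was 0 with ABA, 1 to 3 with AMF1β and 2 to 5 with AMF4, and at 72 h 0 with ABA and AMF1β and 0 to 1 with AMF4. The number higher than ABA at 24 h was 0 to 3 with AMF1β and 0 to 2 with AMF4. The number lower at 24 than at 6 h with ABA was 3 to 6, and the number with a lower change against DMSO was 4 to 6.
At 72 h the count with AMF4 was 0 with no filter on low values, in a fit to libraries of the same time only, and without AMF4 6 h replicate 1 and DMSO 6 h replicate 3 together. When DMSO libraries from 24 and 72 h were pooled as its control it was 3, and for AMF1β it was 1. At 24 h AMF1β exceeded ABA in 1 gene with a pseudocount of 0.1 and in 0 with no filter. AMF4 exceeded ABA in 1 gene with that pseudocount, with no filter, with no trend in the spread, with the replicate block, without the pair of 6 h libraries, and in a fit to one time only. The replicate block, tried although the numbers did not pair the libraries, otherwise changed 1 call against DMSO, MYB96 with AMF1β at 6 h (1.08, adjusted p = 0.0470 by limma). The cause of these shifts was not tested. Scaling moved the median of all genes by at most 0.10. A group left with 1 library was assumed to vary like the others. Calls near the threshold and groups of 1 or 2 libraries limit what 72 h can show, and MYB41 was too low to test.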
